A study of Mus musculus with 12 samples.

Results

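Complement is a cascade of plasma proteins that marks cells and debris for removal and recruits leukocytes. The classical pathway starts when C1q, a molecule built from the products of C1qa, C1qb and C1qc, binds its target and the attached proteases cleave C4 and C2. The alternative pathway uses factor B and amplifies itself on C3, the protein on which all routes converge. Fragments released by cleavage, C3a and C5a, signal through C3AR1 and C5AR1. Most C3 in blood comes from the liver, but kidney tubules make C3 locally after injury, whereas C1q is known as a product of macrophages and dendritic cells. The 9 complement genes described here were C1qa, C1qb and C1qc, the central component C3, the classical component C4b, factor B (Cfb), the C1 inhibitor Serping1, and the receptors C3ar1 and C5ar1. They were taken by symbol from the 23183 genes listed in each library, and all 9 were found.

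The libraries came from kidney cortex of male mice, 6 to 7 weeks of age, of the strain given as C57BL/6 with the samples and as C57BL/6N in the design text. One ureter was closed (unilateral ureteral obstruction, UUO), both kidneys were collected on day 7, and the other, contralateral kidney (CL) served as its control. Acot12+/+ mice were compared with global Acot12-/- mice that carry a nuclease-induced mutant allele in every tissue, and each of the 4 groups (Acot12+/+ CL, Acot12+/+ UUO, Acot12-/- CL and Acot12-/- UUO) had 3 libraries. The CL kidney is not a sham kidney, since it belongs to an operated animal. Values are FPKM (fragments per kilobase of transcript, at a common depth), so levels of different genes can be compared per length.

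The depth used for scaling, read from the steps between low values, was 12500000 to 16300000 fragments in CL and 18700000 to 23000000 in UUO libraries. It equals the sequenced depth only if no normalization factor entered the values, which was not tested. Median-ratio size factors were 0.976 to 1.023, while FPKM totals ran from 4.911e+05 to 9.78e+05. A difference in sequenced depth between the sides is therefore not established. Acot12, the targeted gene, was at 52.7 to 78.1 FPKM on the CL side and 9.98 to 21.2 on the UUO side of Acot12+/+ mice, and 6.80 to 9.15 on the CL side and 1.80 to 3.86 on the UUO side of Acot12-/- mice, so both Acot12-/- groups lay under their Acot12+/+ counterparts. Tubule markers were present in all libraries: 6 proximal tubule genes summed to 985 to 1586 FPKM on the CL side and 226 to 454 on the UUO side of Acot12+/+ mice, and 1411 to 2882 on the CL side and 126 to 610 on the UUO side of Acot12-/- mice. The seventh marker, Kap, was left out of these sums after its values were seen, because it ranged from 0 to 1.896e+05 within the Acot12+/+ CL group and from 0 to 1.292e+05 within the Acot12-/- CL group. The Acot12-/- CL libraries were less alike (Pearson r of 0.942 to 0.984 across genes) than those of the other groups (0.974 to 0.992). On the second principal component, with 9.46% of the variance, Acot12-/- CL replicate 2 stood apart at 52.3, against -33.0 to 8.4 for the others. Results that rest on this library are given with and without it.

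The genes are all on the minus strand of the mouse genome (GRCm38, GENCODE vM21). C1qb (chr4:136880129-136886187), C1qc (chr4:136889804-136893065) and C1qa (chr4:136895917-136898803) lie next to each other, with 3 exons each. C3 (chr17:57203970-57228136) and C4b (chr17:34728380-34743882) are related genes whose longest transcripts have 41 exons each. Cfb (chr17:34856374-34862518) overlaps a gene model on the same strand, Gm20547, so reads of the overlap could have gone to either. Serping1 lies at chr2:84765387-84775444, C3ar1 at chr6:122847138-122856161 and C5ar1 at chr7:16246743-16259540. C4b has a close copy, C4a, which stayed between 0 and 0.157 FPKM, and reads of shared stretches could be split between both.

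The promoters of C1qb and C3 are shown because these genes stand for the C1q and the C3 pattern below and their windows hold no annotated exon. Each is the 250 bases before the RefSeq start, on the minus strand of GRCm38.p6 (C1qb chr4:136886201-136886450, C3 chr17:57228137-57228386), written 5′ to 3′. Capitals mark a match to a motif searched on both strands.
C1qb: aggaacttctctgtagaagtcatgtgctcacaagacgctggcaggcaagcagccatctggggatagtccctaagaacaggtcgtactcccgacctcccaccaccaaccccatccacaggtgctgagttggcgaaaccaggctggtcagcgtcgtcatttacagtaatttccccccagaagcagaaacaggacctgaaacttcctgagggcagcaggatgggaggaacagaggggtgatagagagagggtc
C3: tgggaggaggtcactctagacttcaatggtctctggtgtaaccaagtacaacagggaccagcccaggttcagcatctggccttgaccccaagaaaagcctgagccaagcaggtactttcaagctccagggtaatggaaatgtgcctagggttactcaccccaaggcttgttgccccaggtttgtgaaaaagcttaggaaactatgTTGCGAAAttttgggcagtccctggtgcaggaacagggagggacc
The motifs were the core of a PU.1 site (GAGGAAGT), a C/EBP site (TTGCNNAA), an NF-kB site (GGG, any 2 bases, TT, any 1 base, CC), an interferon-stimulated element (GAAA, any 2 bases, GAAA) and a TATA box (TATAAA). The C3 window held 1 C/EBP match, TTGCGAAA, which ends 37 bases before the end of the window. The C1qb window held none of the motifs. Of the other windows, that of C1qc held a PU.1 core match and that of C3ar1 an NF-kB and a TATA match, and that of C5ar1 held none. Of 32851 promoter windows of this length, 9.56% held the C/EBP letters, 2.44% the PU.1 letters, 4.11% the NF-kB letters, 2.98% the interferon letters and 12.4% the TATA letters. RefSeq windows were found for 5 of the 9 genes (C1qb, C1qc, C3, C3ar1 and C5ar1).

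C3 had the largest rise of the 9 genes. In Acot12+/+ mice it was at 2.57, 4.62 and 1.58 FPKM on the CL side and at 270, 295 and 208 FPKM on the UUO side. In Acot12-/- mice it was at 2.24, 6.88 and 7.44 FPKM on the CL side and at 304, 262 and 230 FPKM on the UUO side. Every UUO library was far above every CL library, and the UUO libraries of the genotypes overlapped. The mean rose 88.1-fold in Acot12+/+ and 48.1-fold in Acot12-/- kidneys. On the log2(FPKM + 1) scale the rise was 6.10 (SE 0.35, adjusted p = 7.82e-07, limma) and 5.46 (SE 0.35, adjusted p = 5.74e-07). C3 had the lowest mean of the 9 genes but for both receptors in Acot12+/+ CL kidneys, 2.92 ± 1.55 FPKM (SD, n = 3), and the highest in both UUO groups, 258 ± 44.4 and 265 ± 37.1 FPKM.

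**Figure D1:**
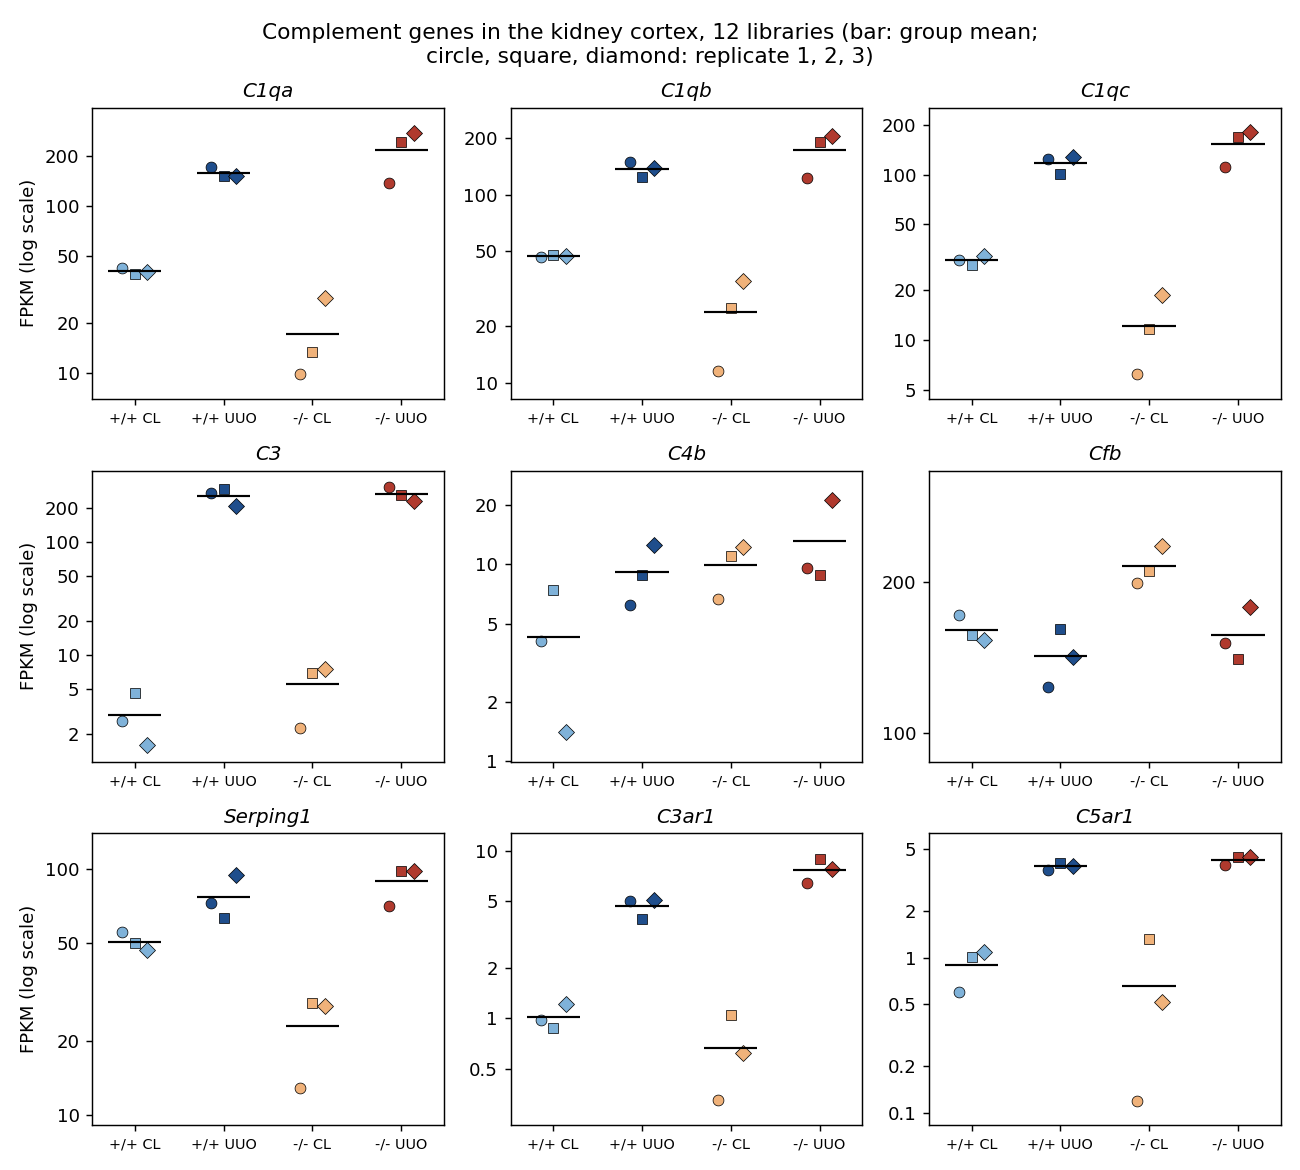
FPKM (log axis) of the 9 complement genes in each of the 12 libraries, by group, with the group mean as a bar and the replicate number as the marker shape. C3 climbs from 1.58 to 7.44 FPKM in CL to 208 to 304 FPKM in UUO libraries, the C1q genes and both receptors are higher in every UUO than in every CL library, and Cfb stays between 124 and 236 FPKM.

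The C1q genes started from a higher level and rose less. In Acot12+/+ mice C1qa was at 42.6, 39.2 and 40.3 FPKM on the CL side and at 170, 151 and 151 FPKM on the UUO side. In Acot12-/- mice it was at 9.89, 13.3 and 28.1 FPKM on the CL side and at 136, 241 and 274 FPKM on the UUO side. The 3 Acot12+/+ CL values were nearly equal, the 3 Acot12-/- CL values spread widely and were all lower, and the UUO values of the genotypes overlapped. C1qb was at 46.9, 47.6 and 47.4 FPKM on the CL side and 149, 124 and 138 on the UUO side of Acot12+/+ mice, and 11.7, 25.1 and 34.7 on the CL side and 123, 190 and 205 on the UUO side of Acot12-/- mice. C1qc was at 30.5, 28.5 and 32.4 FPKM on the CL side and 125, 101 and 127 on the UUO side of Acot12+/+ mice, and 6.25, 11.7 and 18.9 on the CL side and 111, 168 and 180 on the UUO side of Acot12-/- mice. The same order of groups held for all 3 genes. In Acot12+/+ kidneys the rise on the log2(FPKM + 1) scale was 1.92 for C1qa (SE 0.33, adjusted p = 0.000522), 1.51 for C1qb (SE 0.31, adjusted p = 0.00199) and 1.91 for C1qc (SE 0.30, adjusted p = 0.000336). In Acot12-/- kidneys it was 3.66 for C1qa (adjusted p = 4.42e-06), 2.90 for C1qb (adjusted p = 1.63e-05) and 3.62 for C1qc (adjusted p = 2.85e-06).

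The 3 C1q genes also moved together within groups. After the group means were taken out, the residuals of the 12 libraries correlated at 0.903 (C1qa with C1qb), 0.929 (C1qa with C1qc) and 0.977 (C1qb with C1qc), while those of C3 correlated with the C1q genes at 0.347 to 0.558. These are descriptions over 12 points that share 4 group means and the depth of their libraries. The residuals of C3 lean on its low CL levels, which varied more on the log2 scale than its UUO levels. The balance inside the trio was not fixed: the C1qa level was 0.531 to 0.909 of the C1qb level in CL libraries and 1.09 to 1.33 of it in UUO libraries, with no overlap. The ratio of C1qa to C1qc overlapped, at 1.14 to 1.58 in CL and 1.18 to 1.52 in UUO.

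The ratio of C3 to C1q separated the sides. C3 was at 0.0393 to 0.516 of the C1qa level in CL libraries and at 0.841 to 2.23 of it in UUO libraries. Against C1qb the ratio was 0.0335 to 0.274 in CL and 1.12 to 2.47 in UUO, and against C1qc 0.0489 to 0.590 in CL and 1.28 to 2.92 in UUO. In none of the 3 ratios did a CL library reach a UUO library. On the log2 scale with a pseudocount of 1, the ratio rose by 2.99 against C1qa, 3.58 against C1qb and 3.02 against C1qc, each at an exact permutation p of 0.005 (two-sided, sides shuffled within genotype, also 0.005 after adjustment over the 3 ratios), which is the smallest that 400 arrangements allow. With kidneys of the same replicate number kept as a pair the exact p was 0.03125, the smallest of 64 arrangements. The rise of the ratio against C1qa was 4.18 in Acot12+/+ and 1.81 in Acot12-/- kidneys, and neither genotype alone can go under an exact p of 0.1. In CL kidneys the ratio of C3 to C1qa was 0.0393 to 0.118 in Acot12+/+ and 0.227 to 0.516 in Acot12-/- libraries, without overlap. In UUO kidneys it was 1.38 to 1.95 and 0.841 to 2.23. Whole cortex gives no source of a transcript, so neither gene can be placed in a cell type from these values.

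**Figure D2:**
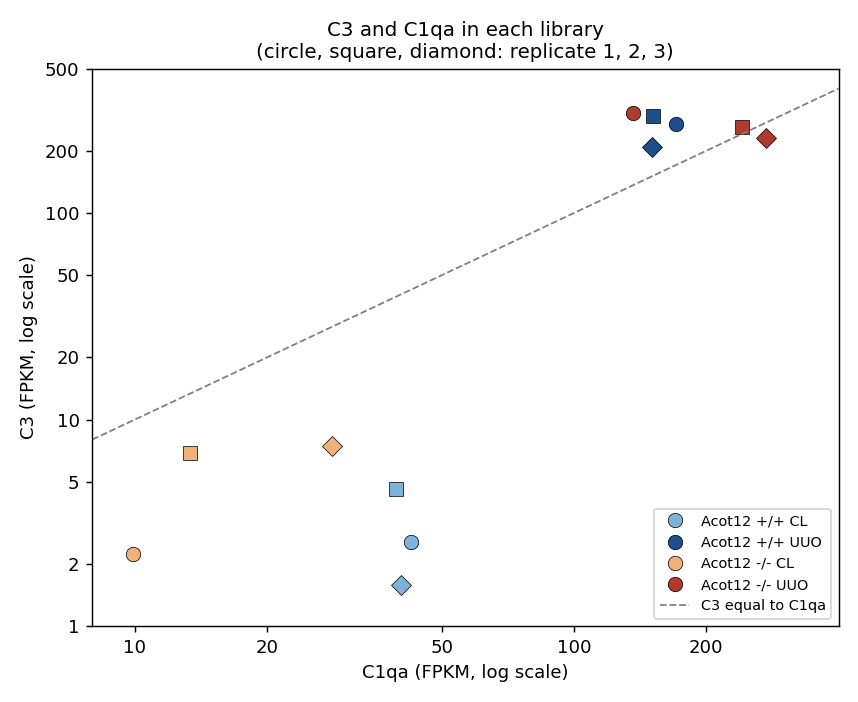
C3 against C1qa in each library, both in FPKM on log axes, with a dashed line where they are equal. The 6 CL libraries lie under the line and differ in C1qa by genotype, and the 6 UUO libraries lie near or above it at 208 to 304 FPKM of C3.

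Macrophage markers were higher in UUO libraries as well. The 13 markers, which exclude complement genes, summed to 93.3 to 113 FPKM on the CL side and 448 to 560 on the UUO side of Acot12+/+ mice, and 46.4 to 70.1 on the CL side and 517 to 577 on the UUO side of Acot12-/- mice, and no marker was at 0 throughout. In UUO against CL, 11 of 13 were called higher in Acot12+/+ and 12 of 13 in Acot12-/- kidneys, against 23.6% and 26.6% of all genes. Mertk, a receptor for the uptake of dying cells, was lower in both, by log2 changes of -0.68 and -0.73. The summed C1q level was 1.07 to 1.24 of the summed marker level on the CL side and 0.743 to 0.840 of it on the UUO side of Acot12+/+ mice, without overlap, so C1q rose less than the marker sum there. In Acot12-/- mice it was 0.599 to 1.16 of the marker sum on the CL side and 0.717 to 1.25 on the UUO side. The marker sum leaned on Lyz2, the highest of the 13 markers in UUO libraries. In Acot12+/+ mice Lyz2 was at 24.9 to 34.0 FPKM on the CL side and 227 to 293 on the UUO side. The lower Acot12+/+ UUO ratio therefore depends on Lyz2, and whether C1q rose less than the other markers was not tested. The 8 injured tubule markers, among them Havcr1 and Lcn2, were all called higher in both genotypes, and Spp1 made up most of their sum, at 878 to 4898 FPKM in CL and 13274 to 15934 FPKM in UUO libraries. The other 7 summed to 87.8 to 192 FPKM in CL and 1457 to 1868 FPKM in UUO libraries. Markers of some further lists were called higher too, in Acot12+/+ and Acot12-/- kidneys respectively: 4 and 4 of 5 T cell, 5 and 7 of 7 fibroblast, 8 and 7 of 10 interferon-responsive, and 1 and 4 of the 4 neutrophil markers tested. Of the 5 endothelial markers, 1 was called higher and 3 lower in Acot12+/+ kidneys, and 3 higher and 0 lower in Acot12-/- kidneys. Other lists had lower calls only: 5 and 6 of the 6 proximal tubule markers tested, 3 and 2 of 4 hepatocyte and 1 and 1 of 3 podocyte markers. Of all genes, 23.9% were called lower in Acot12+/+ and 27.2% in Acot12-/- kidneys, so the podocyte calls were near the background. In these bulk samples more cells of a type and more RNA per cell cannot be told apart, and the part of cell numbers in any result was not tested.

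**Figure D3:**
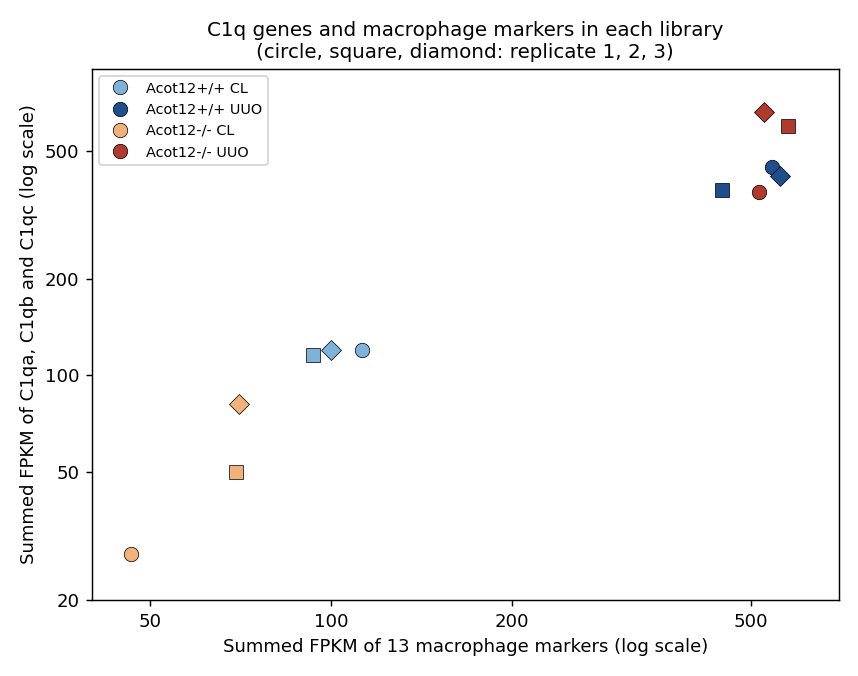
Summed FPKM of C1qa, C1qb and C1qc against the summed FPKM of 13 macrophage markers, 1 point per library, on log axes. C1q sums run from 27.8 to 120 in CL and from 371 to 659 in UUO libraries, and both sums are higher in every UUO than in every CL library, with the Acot12-/- CL libraries lowest on both.

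C4b and Cfb, which act beside C1q and C3, behaved otherwise. C4b, the mouse C4 of the classical pathway, was at 4.09, 7.37 and 1.40 FPKM on the CL side and 6.21, 8.80 and 12.6 on the UUO side of Acot12+/+ mice, and 6.66, 11.1 and 12.2 on the CL side and 9.57, 8.88 and 21.3 on the UUO side of Acot12-/- mice. The groups overlapped, and C4b was not called in Acot12+/+ (log2 difference 1.08, SE 0.44, adjusted p = 0.061) or Acot12-/- kidneys (0.31, SE 0.44, adjusted p = 0.578). Its Acot12+/+ value depended on single libraries: it was 0.595 without Acot12+/+ CL replicate 3 (adjusted p = 0.259) and 1.497 without Acot12+/+ CL replicate 2 (adjusted p = 0.0162), and without Acot12-/- UUO replicate 3 the adjusted p was 0.0477.

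Cfb, the protease of the alternative C3 convertase, was already high in CL kidneys, at 172, 157 and 153 FPKM in Acot12+/+ and 199, 211 and 236 in Acot12-/- libraries. In UUO it was at 124, 161 and 142 FPKM in Acot12+/+ and 151, 140 and 179 in Acot12-/- libraries. The Acot12+/+ sides overlapped (log2 difference -0.18, SE 0.16, adjusted p = 0.365), while every Acot12-/- UUO library was under every Acot12-/- CL library (log2 difference -0.46, SE 0.16, adjusted p = 0.027), as for 27.6% of all genes. The sign of Cfb depended on the scale: with libraries set to equal totals, which moved the median of all genes by 0.625 in Acot12+/+ and 0.464 in Acot12-/- kidneys, Cfb was at 0.55 (adjusted p = 0.0108) and 0.08 (adjusted p = 0.688), which is -0.08 and -0.38 relative to those medians. The Acot12-/- call also ended without Acot12-/- CL replicate 3 (adjusted p = 0.0654), Acot12-/- UUO replicate 1 (0.0754) or Acot12-/- UUO replicate 2 (0.0921), and with the 2 groups fitted alone (0.143). C3 was at 0.0103 to 0.0326 of the Cfb level in CL and at 1.29 to 2.18 of it in UUO libraries.

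Serping1 encodes the inhibitor that removes the proteases from C1. It was at 55.1, 49.8 and 46.8 FPKM on the CL side and 72.7, 63.1 and 94.2 on the UUO side of Acot12+/+ mice, and 12.9, 28.4 and 27.6 on the CL side and 70.2, 97.7 and 98.3 on the UUO side of Acot12-/- mice. Every UUO library was above every CL library of its genotype, and every Acot12-/- CL library was under every Acot12+/+ CL library. It rose in Acot12-/- kidneys by 1.97 (SE 0.27, adjusted p = 8.74e-05). In Acot12+/+ kidneys the log2 difference of 0.57 (SE 0.27) was not called at an adjusted p of 0.101. With the replicate number as a block its adjusted p was 0.0318, and without Acot12-/- CL replicate 1, the library with the lowest Serping1 level, it was 0.0247.

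Both receptors were scarce in CL kidneys. C3ar1 was at 0.972, 0.872 and 1.22 FPKM on the CL side and 5.001, 3.89 and 5.05 on the UUO side of Acot12+/+ mice, and 0.328, 1.05 and 0.619 on the CL side and 6.37, 8.94 and 7.73 on the UUO side of Acot12-/- mice. C5ar1 was at 0.597, 1.01 and 1.08 FPKM on the CL side and 3.68, 4.08 and 3.88 on the UUO side of Acot12+/+ mice, and 0.119, 1.32 and 0.519 on the CL side and 3.94, 4.44 and 4.43 on the UUO side of Acot12-/- mice. For both, no CL library reached a UUO library. C3ar1 rose by 1.48 (SE 0.18, adjusted p = 5.56e-05) in Acot12+/+ and 2.39 (SE 0.18, adjusted p = 1.34e-06) in Acot12-/- kidneys. C5ar1 rose by 1.37 (SE 0.22, adjusted p = 0.000317) and 1.74 (SE 0.22, adjusted p = 4.15e-05). At these levels the log2(FPKM + 1) scale understates the change: the mean of C3ar1 was 4.55 and 11.5 times as high in UUO as in CL, and that of C5ar1 4.34 and 6.54 times. The lowest C5ar1 value, in Acot12-/- CL replicate 1, corresponds to about 4.02 fragments. C3ar1 reached 1 FPKM in 2 of the 6 CL libraries and C5ar1 in 3, so C3ar1 passed the filter on low values through its UUO libraries.

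Counted together, 6 of the 9 genes were called higher and 0 lower in Acot12+/+ UUO against CL kidneys (limma, adjusted p under 0.05 over 13243 genes), where 47.5% of all genes tested were called and 23.6% were called higher. In Acot12-/- kidneys 7 were called higher and 1 lower, against 53.7% of all genes called and 26.6% called higher. With libraries set to equal totals the members' split was 9 higher and 0 lower in Acot12+/+ and 7 higher and 0 lower in Acot12-/- kidneys, where 56.7% and 46.7% of all genes were called higher. On the log2(FPKM + 1) scale the members had a median difference of 1.48 in Acot12+/+ and 2.39 in Acot12-/- kidneys, against 0.005 and -0.011 over all genes. In both genotypes 7 of the 9 genes were higher in every UUO library than in every CL library, against 35.5% and 27.8% of all genes. C3ar1, which passed the filter through its UUO libraries, is in each of these counts of higher genes, so its part in them is no independent support. The UUO against CL comparisons of the 2 genotypes share no libraries. They share the spread estimated over all 4 groups in 1 model, so their calls are not independent. Genotype comparisons below use the same libraries again.

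Between genotypes, members were called in CL kidneys. There 3 of the 9 genes were lower in Acot12-/- mice, where 4.48% of all genes tested were called and 3.36% were called lower. These were C1qa (log2 difference -1.33, SE 0.33, adjusted p = 0.039), C1qc (-1.36, SE 0.30, adjusted p = 0.0268) and Serping1 (-1.18, SE 0.27, adjusted p = 0.0312). C1qb was at -1.09 (SE 0.31, adjusted p = 0.0768), and all 4 genes were lower in every Acot12-/- CL library than in every Acot12+/+ CL library, a pattern that 9.73% of all genes shared. The means of C1qa, C1qc and Serping1 were 2.38, 2.49 and 2.20 times as high in Acot12+/+ as in Acot12-/- CL kidneys. Each call ended when any Acot12+/+ CL library or Acot12-/- CL replicate 1 was left out, with adjusted p of 0.0712 to 0.145, and when the 2 CL groups were fitted alone, with adjusted p of 0.134 to 0.138. The C1qa call also ended without any Acot12+/+ UUO library (0.0563 to 0.0618) and the Serping1 call without Acot12+/+ UUO replicate 1 (0.0522). Without Acot12-/- CL replicate 2, the library that stood apart, 5 genes were called, C1qb (-1.18, adjusted p = 0.0366) and C5ar1 (-0.53, adjusted p = 0.0355) joining these 3, where 10.5% of all genes were called lower. C1qb was at -0.66 without Acot12-/- CL replicate 1 (adjusted p = 0.187) and at -1.41 without replicate 3 (adjusted p = 0.0204).

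The other members did not follow C1q in CL kidneys. C3 was at a log2 difference of 0.69 (SE 0.35, adjusted p = 0.362), C4b at 1.19 (SE 0.44, adjusted p = 0.169) and Cfb at 0.42 (SE 0.16, adjusted p = 0.180), all on the higher side in Acot12-/- kidneys, and Cfb was higher in every Acot12-/- CL library, as were 8.6% of all genes. C3ar1 was at -0.30 (adjusted p = 0.440) and C5ar1 at -0.25 (adjusted p = 0.632). Markers of several cell types moved with the lower C1q level: 2 of 13 macrophage markers (Lyz2 at -1.16 and Cd68 at -1.11), 3 of 5 T cell, 2 of 7 fibroblast and 4 of 5 endothelial markers were called lower in Acot12-/- CL kidneys, and 0 of these were called higher. Of all genes, 3.36% were called lower there. Among neutrophil, proximal tubule, injured tubule, podocyte and hepatocyte markers 0 were called. The macrophage receptor gene Csf1r was at a log2 difference of 0.03. Interferon-responsive markers summed to 92.4, 246 and 177 FPKM in the Acot12-/- CL libraries and to 107 to 116 FPKM in Acot12+/+ CL, and 1 of 10 was called higher. Their part in the C1q difference was not tested.

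In UUO kidneys 0 of the 9 genes were called between genotypes by limma, where 0.0151% of all genes tested were called. C3ar1 alone had an unadjusted p under 0.05 (0.00448, adjusted p = 1.00): its log2 difference was 0.62 (SE 0.18), and every Acot12-/- UUO library was above every Acot12+/+ UUO library, as for 5.5% of all genes. C1qa was at 0.40 (SE 0.33), C1qb at 0.30 (SE 0.31), C1qc at 0.35 (SE 0.30) and Serping1 at 0.21 (SE 0.27), with overlapping libraries. C3 was at 0.05 (SE 0.35), with the opposite sign, -0.12, at equal totals.

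**Figure D4:**
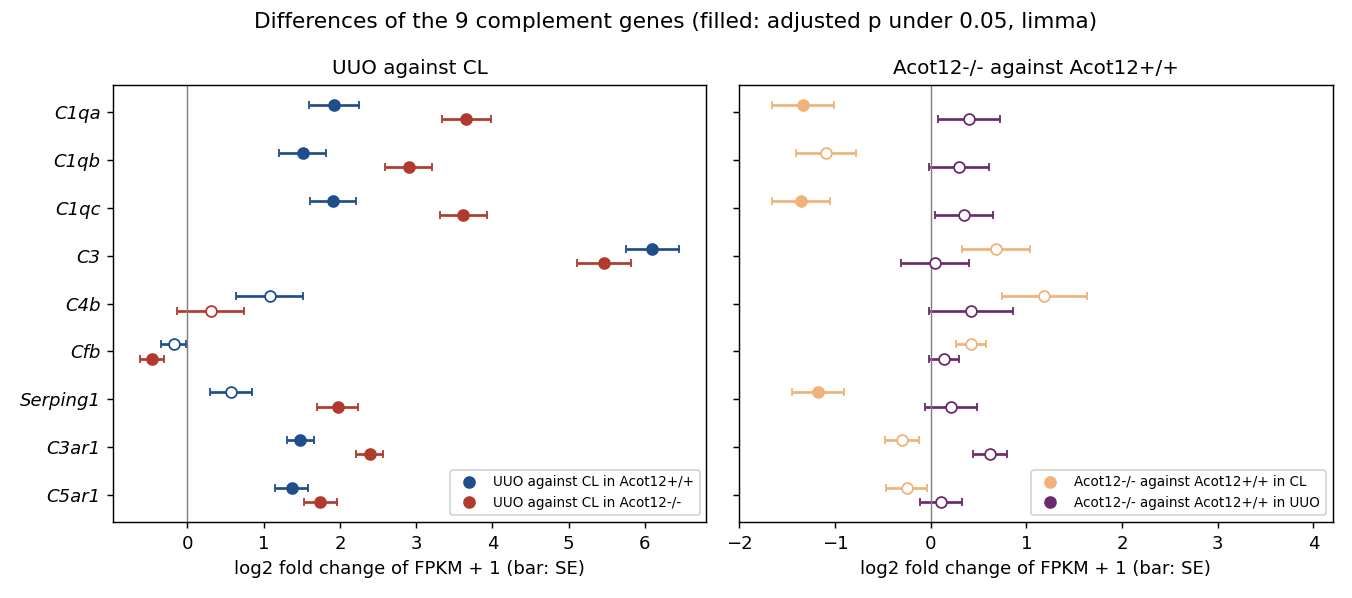
Log2 differences of FPKM + 1 with their SE for the 9 genes, UUO against CL in each genotype (left) and Acot12-/- against Acot12+/+ on each side (right), filled where the adjusted p was under 0.05. C3 lies at 6.10 and 5.46 on the left, the 3 filled points on the right are C1qa, C1qc and Serping1 in CL kidneys, and Cfb, left of 0 on the left panel, turns to 0.55 and 0.08 at equal totals.

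Whether C1q rose more in Acot12-/- kidneys was tested as an interaction of genotype and UUO. No member passed in the fit without pairs, where 0.106% of all genes tested were called. The extra log2 rise in Acot12-/- kidneys was 1.74 for C1qa (SE 0.46, adjusted p = 0.144), 1.71 for C1qc (SE 0.43, adjusted p = 0.125), 1.39 for C1qb (SE 0.44, adjusted p = 0.235), 1.39 for Serping1 (SE 0.39, adjusted p = 0.157) and 0.91 for C3ar1 (SE 0.25, adjusted p = 0.152). These 5 genes had unadjusted p of 0.00175 to 0.00867 (limma), and 10.5% of all genes tested had an unadjusted p under 0.05. For the C1q genes and Serping1 the extra rise lay mostly in the lower CL level. The genotype difference of C1qa was -1.33 in CL and 0.40 in UUO kidneys. For C3ar1 it lay mostly in UUO kidneys (-0.30 in CL, 0.62 in UUO). With the replicate number as a block, C1qa and C1qc were called, both at an adjusted p of 0.038, and 0.627% of all genes were called. C3 had the opposite sign, at -0.64 (SE 0.50, adjusted p = 0.780). Paired by replicate number, the log2 rise of C1qa was 1.98, 1.92 and 1.87 in Acot12+/+ and 3.66, 4.08 and 3.24 in Acot12-/- mice, and that of C3 was 6.24, 5.72 and 6.34 in Acot12+/+ and 6.56, 5.06 and 4.78 in Acot12-/- mice. Without Acot12-/- CL replicate 3, which had the highest C1q of its group, C1qa and C1qc were called (adjusted p of 0.0208 and 0.0237), as were 1.16% of all genes. Without Acot12-/- CL replicate 2, Serping1 and C3ar1 were called (0.0367 and 0.0249), as were 6.8% of all genes.

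The rest of the pathway was read from a list of 46 other complement genes, of which 24 passed the filter. Of the 22 that did not, 18 stayed under 1 FPKM in every library, among them Hc, the gene of C5, at up to 0.370 FPKM, and C9, a pore component, at up to 0.200 FPKM. Transcripts for the C5 and C9 proteins were thus near the floor where the receptor C5ar1 was measured. Of the 24, 12 were called higher and 6 lower in Acot12+/+ UUO against CL kidneys, and 12 higher and 5 lower in Acot12-/- kidneys, with medians of 0.51 and 0.58 on the log2 scale. Of all genes, 23.6% were called higher and 23.9% lower in Acot12+/+ and 26.6% and 27.2% in Acot12-/- kidneys, so the lower calls were near the background. Masp2 reached 1 FPKM in CL libraries only, and C5ar2 and Itgam in UUO libraries only, so these 3 passed the filter through the side where they were high and had to differ. Itgax, at 1 FPKM or more in 2 CL and 6 UUO libraries, also passed through its UUO side. Masp2 counts among the lower calls and C5ar2, Itgam and Itgax among the higher calls of both genotypes, so these calls are no independent support.

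Among initiators and proteases, C1ra and C1s1, which encode the proteases that C1q carries, rose with C1q: C1ra by 1.28 and 2.01 and C1s1 by 1.52 and 2.39 in Acot12+/+ and Acot12-/- kidneys. C1ra and C1s1 have near-identical copies, C1rb and C1s2, which reached at most 1.15 FPKM but could have taken some of their reads. Properdin (Cfp), which stabilises the alternative convertase, rose by 2.30 and 3.11. C2, the partner of C4, rose by 0.87 in Acot12+/+ kidneys (adjusted p = 0.00123) and was at 0.30 in Acot12-/- kidneys (adjusted p = 0.145), where it was 27.2 to 27.7 FPKM already in CL libraries. Masp2, a protease of the lectin pathway that passed the filter through its CL libraries alone, fell by 0.69 and 0.98 on the log2 scale.

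Among regulators, Clu (clusterin), which binds terminal complexes, rose by 2.87 and 2.69 and reached 825 to 1099 FPKM in Acot12+/+ UUO libraries. Cfi, the protease that inactivates C3b, rose by 2.24 and 1.22. The membrane regulator Cd55, which speeds the decay of convertases, fell by 1.34 and 1.37 on the log2 scale. Cpn1, a subunit of the carboxypeptidase that inactivates C3a and C5a, rose by 1.27 in Acot12+/+ kidneys and was at -0.05 (adjusted p = 0.881) in Acot12-/- kidneys. The terminal genes C8a and C8g fell in both genotypes: C8a fell by 2.82 and 2.57 and C8g fell by 2.00 and 1.70 on the log2 scale. Of the other receptors, Itgam and Itgb2, which form complement receptor 3 of myeloid cells, rose by 2.30 and 1.47 in Acot12+/+ and by 2.74 and 2.20 in Acot12-/- kidneys. Itgam passed the filter through its UUO libraries alone.

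**Figure D5:**
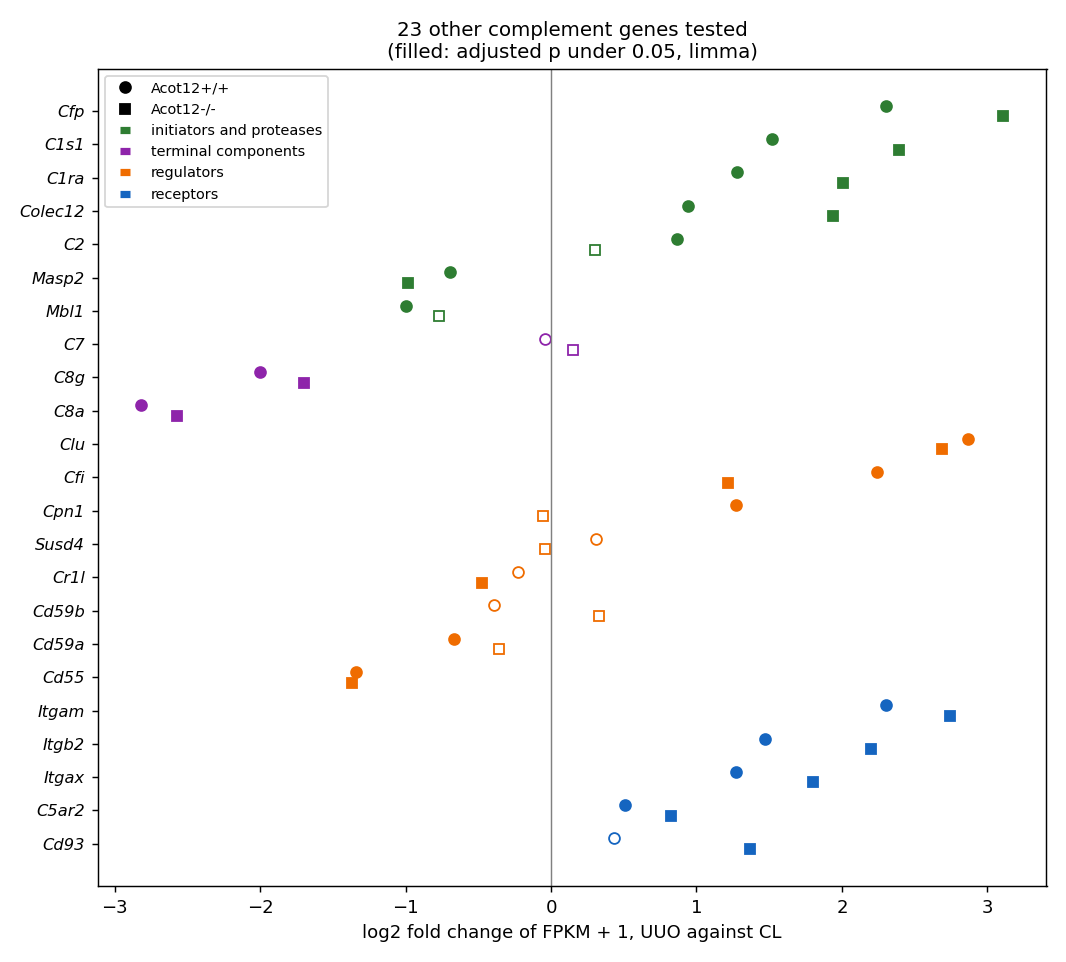
Log2 differences of FPKM + 1, UUO against CL, of 23 of the 24 other complement genes tested, by role, with circles for Acot12+/+ and squares for Acot12-/- kidneys, filled where the adjusted p was under 0.05. Receptors lie to the right, C8a and C8g far to the left at -2.82 to -1.70, and the regulators spread from Clu at 2.87 to Cd55 at -1.34 in Acot12+/+ kidneys.

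Between genotypes in CL kidneys, 3 of these 24 genes were called higher in Acot12-/- mice, Cpn1 (1.35, adjusted p = 0.0147), Cfi (1.30, adjusted p = 0.0302) and C2 (0.93, adjusted p = 0.0117), and 2 lower, C1s1 (-0.81, adjusted p = 0.0383) and Itgb2 (-0.80, adjusted p = 0.0141), against 1.12% of all genes called higher and 3.36% lower. In UUO kidneys and in the interaction 0 were called by limma, with 1 and 11 at an unadjusted p under 0.05, against 2.36% and 10.5% of all genes. With the CL groups fitted alone, 0 of the 5 CL calls were left.

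The genes most like C1qa and C3 within groups differed. Over the residuals of 12 libraries and 6375 genes with a mean of at least 10 FPKM, those closest to C1qa were Ifi35 (Pearson r of 0.974), Psmb10 (0.947), Psmb8 (0.947), Psme1 (0.943) and Ensa (0.940). Those closest to C3 were Rabif (0.937), Slc13a1 (0.928), Rbm22 (0.922), Tmem251 (0.917) and Vmp1 (0.906). These were picked as the highest of many values over 12 libraries, so they are a description. Within CL groups C3 ran from 1.585 to 4.615 FPKM in Acot12+/+ and 2.244 to 7.438 in Acot12-/- libraries. Within UUO groups it ran from 208 to 295 and from 230 to 304 FPKM. On the log2 scale its residuals, and each r of C3 given here, therefore lean on its low CL levels. Psmb8, Psmb10 and Psme1 encode parts of the immunoproteasome and its activator, and Slc13a1 a sulfate transporter of the proximal tubule. Against macrophage markers the residuals of C1qa correlated at -0.778 to 0.886, with a median of 0.446 over 13 genes. This list did not stand apart: the median for C1qa was 0.461 for neutrophil, 0.397 for injured tubule and 0.373 for endothelial markers. It was -0.213 for T cell and -0.402 for proximal tubule markers. For C3 the median was 0.308 for macrophage, 0.552 for neutrophil, 0.596 for interferon-responsive and 0.665 for injured tubule markers.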

How the data were processed

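Total RNA of kidney cortex was made into directional NEBNext Ultra II libraries and sequenced on a NovaSeq instrument, and the authors had the reads trimmed, mapped and normalized by a company. The deposited values are the authors' FPKM for 23183 genes, 1 column per library. The unit is not named in the sources used here and was derived from the values, which fall on whole multiples of a step that shrinks with transcript length. The submitters' processing notes name mm10 and edgeR with no role, and the aligner is not given in the sources used here. The steps gave the depth used for scaling (at most 0.587% error in 3 simulated libraries with 3075 genes). The simulated libraries held no normalization factor, so this error does not cover the step from scaling to sequenced depth. FPKM hold no counts, so counting error enters through the spread between replicates.

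Groups came from the sample titles. Genes with at least 1 FPKM in at least 3 libraries were tested, without 28 genes listed at 0 beside at least 10 FPKM in the same group, which left 13243. R 4.3.3 with limma 3.58.1 was fitted to log2(FPKM + 1) with all 4 groups in 1 model and a variance trend, and p-values were adjusted by Benjamini-Hochberg over all genes tested. Unless stated otherwise adjusted p are from limma. Separate animals are not named in the labels, so p-values measure the spread between these libraries. The script was tested on simulated data. The members, the lists of complement and marker genes, the filter and the tests were chosen with earlier results of these data known, so no list is independent evidence of its direction.

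Named genes were the 9 members, 46 other complement genes, marker genes, Acot12 and the 5 genes most like C1qa and C3. One gene of the complement list counts in its totals but is not reported here. Within genotypes, residuals of CL and UUO libraries with the same number correlated at 0.134, 0.364 and 0.335 in Acot12+/+ and 0.322, 0.186 and 0.318 in Acot12-/- mice (highest value between different numbers 0.139). The labels do not say that equal numbers are kidneys of the same mouse, so pairing by replicate number is an inference. Alternatives were a pseudocount of 0.1, no filter, equal totals, median-ratio size factors, the compared groups alone, no variance trend, genes listed at 0 kept, the replicate block and leaving out each library. Promoters are from RefSeq (GRCm38.p6). Positions are from GENCODE vM21 (GRCm38, the assembly that mm10 names).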

Additional observations from a re-analysis of the deposited data

How the results depend on the processing

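Of 891 recomputed values of the 9 genes in the 5 comparisons, 842 kept their direction and their side of the threshold, 26 lost and 17 gained a call, and 8 changed sign, 2 of which are among those lost or gained. At equal totals, which gave 7672 genes called higher and 1042 lower in Acot12+/+ kidneys against 3129 and 3161 in the deposited scale, and 6325 and 1547 against 3518 and 3596 in Acot12-/- kidneys, Cfb was at 0.549 and 0.0844 in UUO against CL, and C3 at -0.123, Cfb at -0.0314 and C5ar1 at -0.0292 in Acot12-/- against Acot12+/+ UUO. With a library left out, the same C3 difference ranged from -0.0961 (without Acot12+/+ UUO replicate 3; -0.0543 without Acot12-/- UUO replicate 1) to 0.153, and that of C4b in Acot12-/- UUO against CL from -0.0655 (without Acot12-/- UUO replicate 3) to 0.521. The 3 calls between CL kidneys became 1 with no filter, 0 with the groups fitted alone and 0 to 5 with a library left out. In the interaction, 0 calls became 2 with the replicate block and 0 to 2 with a library left out. The calls in UUO against CL stayed at 6 to 7 in Acot12+/+ and 7 to 8 in Acot12-/- kidneys when a library was left out, and those between UUO kidneys at 0. Of the other calls the block changed that of Serping1 in Acot12+/+ kidneys and no further call of the 9 genes. The rise of the ratio of C3 to C1qa, C1qb and C1qc was 4.18, 4.59 and 4.19 in Acot12+/+ kidneys alone and 1.81, 2.57 and 1.84 in Acot12-/- kidneys alone, each at the smallest exact p of 0.1, and 2.79 to 3.15, 3.41 to 3.72 and 2.86 to 3.19 with a library left out. C5ar1 in CL kidneys, at 4.02 fragments in 1 library, is limited by depth.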

Other observations

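Cfd, the gene of factor D (adipsin), which activates factor B and is known as a product of fat cells, was at 15.1 FPKM in Acot12+/+ CL replicate 2 and at 0 to 0.691 FPKM in the other 11 libraries, so it passed no filter. Of further fat cell genes, chosen after values were seen, Adipoq was at 1.62 FPKM in that library and at 0 to 0.268 FPKM in the others, and Plin1 (0.348 FPKM), Retn (0.707 FPKM) and Cidec (1.32 FPKM) were also highest there. Fabp4 was not, at 258 FPKM against 279 and 307 FPKM in the other Acot12+/+ CL libraries. The neutrophil markers in that library summed to 69.4 FPKM, against 17.1 and 17.9 in the other Acot12+/+ CL libraries. Its C3 (4.62 FPKM) and C4b (7.37 FPKM) were the highest of its group, while its C1qa (39.2 FPKM) and C1qc (28.5 FPKM) were the lowest and its C1qb (47.6 FPKM) was the highest.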
